A study of Homo sapiens with 16 samples.

Results

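The first step of neural differentiation, from undifferentiated H9 cells on day 0 (D0) to the end of neural induction on day 12 (D12), was examined in 8 of the 16 RNA-seq libraries of the series, which were chosen by the stage in their titles. They were sequenced from total RNA after depletion of ribosomal RNA. The groups were D0 control, D0 TMG, D12 control and D12 TMG, with 2 libraries each, and D12 was compared with D0 with the arm as a covariate. H9 is a human embryonic stem cell (hESC) line, so each library stands for a culture of a single line, and the study's methods describe the replicates as biological. D0 cells grew without feeders on Matrigel in mTeSR1, and the D12 cells had then spent the whole 12 days in KSR and N2 media with LDN193189, which inhibits BMP type 1 receptors, and SB431542, which inhibits activin receptors (dual SMAD inhibition). TMG (Thiamet-G) blocks O-GlcNAcase, the enzyme that removes O-GlcNAc from proteins. TMG cells received it at 40 µM and control cells its solvent DMSO, at both stages, so that the D0 TMG cells were undifferentiated cells that already carried the treatment. D12 cells alone received both SMAD inhibitors and the induction media, and time, medium and inhibitors cannot be told apart in the change between the stages.

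Undifferentiated hESCs are held in the pluripotent state by a circuit of transcription factors around POU5F1 (OCT4), NANOG and SOX2, and by FGF and activin or Nodal signalling from the medium and from the cells themselves. BMP and Nodal signals direct such cells to non-neural fates, and when both are blocked the cells turn to neuroectoderm. This tissue expresses PAX6 and SOX1, and it forms the neural plate, whose border gives rise to the neural crest, placodes and dorsal midline. Anterior neuroectoderm, from which forebrain and cortex form, carries OTX1, OTX2, LHX2 and SIX3, whereas WNT, FGF and retinoic acid signals give it more posterior identity.

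Library totals were between 13372991 and 19215520 estimated counts. Within a stage the libraries resembled each other closely, with a mean correlation of log values across genes of 0.9776 to 0.9903, but single libraries stood apart for certain gene groups. In D0 control replicate 2 the small RNAs 7SL and 7SK took 9.38% of the counts, against 2.34% to 5.51% elsewhere. The same library was the highest of the 4 D0 libraries for 21 of 26 neural plate genes, while D0 control replicate 1 was the lowest for 21 of them. Over all genes tested these shares were 33.3% and 31.1%. D0 control replicate 2 was also the highest D0 library for 21 of 25 forebrain factors and 9 of 10 mesoderm and endoderm markers, and the lowest (34.4% of all genes) for 14 of 19 genes enriched in stem cells. D0 control replicate 1 was also the lowest for 12 of 16 neural crest and placode markers, 10 of 12 posterior factors, 8 of 11 mesenchyme markers and 13 of 18 Polycomb genes. D12 TMG replicate 2 was the highest D12 library for 14 of 16 neural crest and placode markers and the lowest for 17 of 25 forebrain factors, against 26.6% and 28.4% of all genes. It was also the highest for 6 of 6 genes of DNA methylation. D12 TMG replicate 1 was the highest for 9 of 9 surface ectoderm markers, and D12 control replicate 1 the lowest (28.7% of all genes) for 8 of these 9 and for 12 of 16 crest and placode markers. Levels below are counts scaled to library size and composition (CPM), and the 4 values of a stage are always given in the order control 1, control 2, TMG 1 and TMG 2. For 4 of the 8 libraries a separate treatment tag names the other arm than the title. The tags follow the replicate number, control for every replicate 1 and TMG for every replicate 2. The titles were used, and with the tags as covariate 12410 genes in place of 12443 differed between the stages.

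The stages differed in 12443 of the genes tested (54.2%). Of 22970 genes tested with edgeR's quasi-likelihood test, 6273 (27.3%) were higher and 6170 (26.9%) lower on D12 at a false discovery rate (FDR) of 5% after Benjamini-Hochberg adjustment, which is what called means below. Of these, 1426 rose (6.21% of all tested) and 1119 fell (4.87%) by 4-fold or more. All 4 D12 libraries lay above all 4 D0 libraries for 5725 genes (24.9%) and below them for 5777 (25.2%). The median log2 fold change of all genes was 0.03 and their median absolute change 0.61, and any count for a gene group is read against these percentages. The RNA came from whole cultures, in which fewer cells of a type and less RNA per cell cannot be told apart.

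The marker POU5F1 (ENSG00000204531, GRCh37 chr6:31132114-31148508, minus strand), the OCT4 factor on which pluripotency rests, had 858, 932, 908.5 and 874 CPM on D0 and 0.574, 0.821, 0.493 and 0.396 CPM on D12. Every D12 library was far below every D0 library, and the D12 mean was 0.0639% of the D0 mean. The fitted log2 fold change was -10.59 ± 0.19 (SE; adjusted p = 3.57e-08, edgeR), and POU5F1 was among the 10 largest falls. Each SE was derived from the fold change and the F statistic of its test. For genes with few counts at a stage it can be smaller than counting error. Some reads of POU5F1, NANOG and TDGF1 may be shared with their pseudogene copies, and the fold is uncertain to that extent.

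PAX6 (ENSG00000007372, chr11:31806327-31839509, minus strand), the paired-box factor that marks human neuroectoderm, rose from 4.11, 15.2, 10.8 and 9.52 CPM to 609, 626, 581 and 322 CPM. The 4 D12 libraries were all above the D0 range, with TMG replicate 2 the lowest, and the log2 fold change was 5.74 ± 0.42 (adjusted p = 1.93e-05, edgeR). OTX1 (ENSG00000115507, chr2:63277192-63284971, plus strand), an orthodenticle factor of forebrain and midbrain, rose from 2.31, 5.54, 3.66 and 3.08 CPM to 172, 277, 266 and 188 CPM. Its log2 fold change was 5.96 ± 0.30 (adjusted p = 3.37e-06, edgeR) and its groups did not overlap either. Of the other markers set for neural progenitors, SOX1 did not pass the filter on low counts, with 12 counts in all 8 libraries together, and FABP7 was not called (log2 fold change -0.88 ± 0.36), though it was without D0 control replicate 1 (-1.19) or D12 control replicate 1 (-1.17), and with DESeq2 (-0.89). HES5, a Notch target of neural stem cells, was at 2.57, 13.8, 12.3 and 11.2 CPM on D0 and 108.3, 37.5, 33.8 and 2.38 CPM on D12. TMG replicate 2 lay below every D0 library, the other 3 D12 libraries above them, and HES5 was not called (log2 fold change 1.90 ± 0.92, adjusted p = 0.111, edgeR). Without that library its change was 2.53 with an adjusted p of 0.0176. POU5F1, PAX6 and OTX1 thus separated the stages in every library, and HES5 did not.

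**Figure D1:**
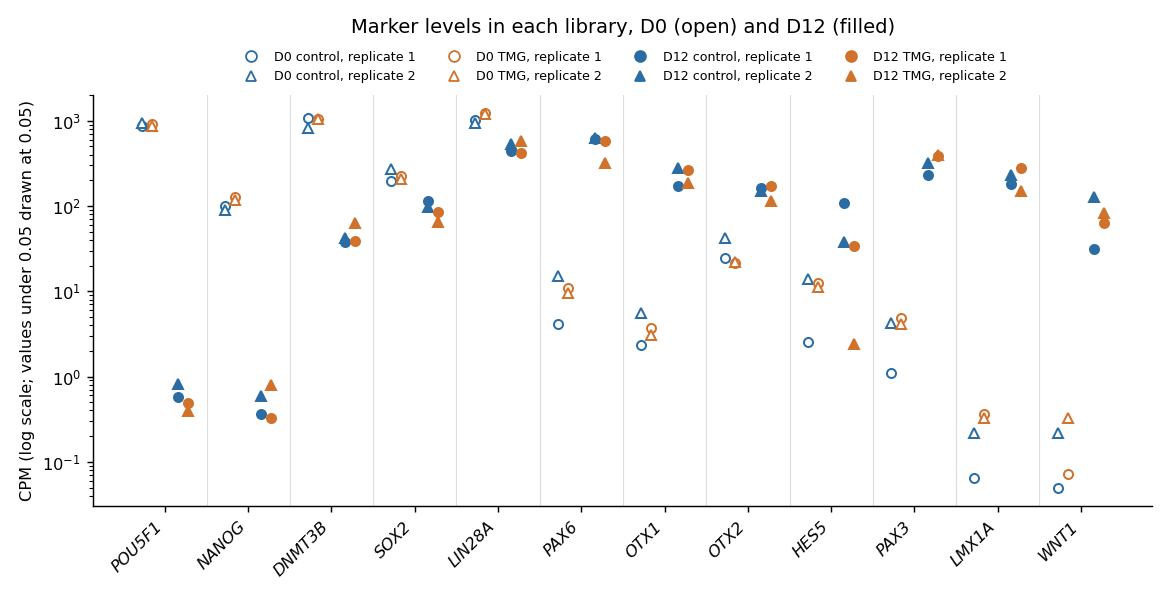
Level (values under 0.05 CPM are drawn at 0.05) of 12 named genes in each of the 8 libraries, in CPM on a log axis. Open symbols are D0 and filled symbols D12, blue control and orange TMG, circles replicate 1 and triangles replicate 2. POU5F1 falls from about 900 CPM to under 1 CPM in every library, PAX6 and OTX1 rise in every library, and for HES5 the D12 TMG replicate 2 value of 2.38 CPM lies below the D0 values.

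Core pluripotency factors were mostly lower, by very different amounts. Of 18 tested, 14 (77.8%) were lower and 1 higher, with a median log2 fold change of -2.01. NANOG, the homeobox factor of the core circuit, fell from 98.5, 89.7, 127 and 119 CPM to 0.365, 0.586, 0.329 and 0.792 CPM (log2 fold change -7.71 ± 0.21). PRDM14, a repressor of differentiation genes, fell by 9.54 ± 0.36 on the log2 scale. SOX2, the partner of POU5F1 that neural progenitors also use, had 198, 272, 226 and 208 CPM on D0 and still had 116, 97.4, 85.5 and 65.6 CPM on D12. Its fall of 1.33 ± 0.15 was called (adjusted p = 0.000144, edgeR), and the groups did not overlap. OTX2, listed with pluripotency for its role in the primed state and also an anterior neural factor, was the member that rose, from 24.7, 41.9, 21.5 and 22.02 CPM to 161, 148, 174 and 116 CPM (log2 fold change 2.47 ± 0.21). Its call was lost with all 16 libraries in the fit (2.45), where no member of the list was higher.

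Genes enriched in stem cells were nearly all lower. Of 19 tested of 22, 17 (89.5%) were lower, 16 of them by at least 4-fold, and the median was -3.58. TDGF1, the Cripto co-receptor of Nodal, fell from 333, 328, 295 and 292 CPM to 0, 0.234, 0.110 and 0 CPM, a log2 fold change of -11.71 ± 0.35. LCK, a tyrosine kinase of lymphocytes that hESCs also transcribe, had 1486 counts in the D0 libraries and 1 on D12, a ratio of 1680 with a 95% counting interval of 301 to 66300. DPPA4, a chromatin factor of stem cells, fell by 2.88 ± 0.12 on the log2 scale. The RNA-binding protein pair LIN28A and LIN28B, which blocks let-7 maturation, moved in opposite directions, as LIN28A fell (-1.15 ± 0.14) and LIN28B rose slightly (0.36 ± 0.09, adjusted p = 0.00874, edgeR). The rise of LIN28B was not called with all 16 libraries in the fit (0.34). The LIN28B to LIN28A ratio was higher in each D12 library than in any D0 library, and it shifted by 1.52 on the log2 scale. Ratios of one gene to another, here and below, were taken after adding 1 CPM to each, which damps shifts of genes at low levels.

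Beyond the lists, the 10 largest falls among genes with at least 10 CPM at the higher stage were LNCPRESS2, TDGF1, IDO1, POU5F1, LCK, TDGF1P3, PRDM14, LINC00678, ESRG and TNFRSF8. LNCPRESS2, a long noncoding RNA (lncRNA), had 39.5, 20.4, 35.1 and 35.4 CPM on D0 and no count on D12, so it was at least 767-fold lower when 3 counts over the 4 D12 libraries are taken as the floor. IDO1, an enzyme of tryptophan breakdown, was by the same floor at least 307-fold lower. TNFRSF8, the CD30 receptor known from embryonal carcinoma, fell from 26.7, 13.9, 29.6 and 30.5 CPM to 3 counts in all (ratio 596, 95% counting interval 203 to 2890). TDGF1P3 is a processed copy of TDGF1, so that its reads and those of TDGF1 may not be fully separated. ESRG, an lncRNA driven by a retroviral repeat in hESCs, fell from 751, 467, 750 and 728 CPM to 0.782, 0.997, 1.59 and 1.39 CPM. For these 10 genes every D12 library was below every D0 library, which the rule required.

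Neural plate and progenitor factors mostly rose. Of 26 tested of 29, 18 (69.2%) were higher and 3 lower, with a median of 1.69. The nuclear receptors NR2F2 and NR2F1, which pattern the neuroepithelium, were among the 3 largest rises of the list, together with PAX6. NR2F2 went from 2.38, 10.9, 7.82 and 7.09 CPM to 422, 407, 525 and 454 CPM (log2 fold change 6.01 ± 0.40), and NR2F1 rose by 4.39 ± 0.48. The homeobox gene MEIS2 (3.99 ± 0.43) and the zinc finger genes ZIC1 (3.65 ± 0.25) and GLI3 (2.62 ± 0.18) followed. Lower were POU3F1, a POU factor of the early neural plate (-2.53 ± 0.15), SOX4 (-1.04 ± 0.16) and GLI2 (-0.43 ± 0.08). POU3F2 was not called (0.33 ± 0.38). The POU3F2 to POU5F1 ratio shifted by 9.61 on the log2 scale, a value damped by the added 1 CPM, as POU5F1 was below that level on D12. D0 control replicate 1 held the lowest and replicate 2 the highest D0 value for most of this list, as given above, and 17 members were higher without either one.

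Forebrain and eye field factors were split. Of 25 tested of 30, 12 (48.0%) were higher and 5 lower, and 5 members did not pass the filter. OTX1, LHX5 (3.30 ± 0.40) and EMX2 (2.97 ± 0.33) rose without overlap. BARHL1, a homeobox factor of the diencephalon and dorsal neural tube, rose most, from 0.257, 0.584, 0.431 and 0.487 CPM to 153, 72.9, 113 and 48.9 CPM (log2 fold change 7.75 ± 0.47). The eye field and telencephalic factors SIX6 (-2.33 ± 0.23), EMX1 (-2.51 ± 0.34) and LHX2 (-1.59 ± 0.47) were lower. SIX3, which represses WNT genes in the anterior plate, had 59.9, 24.3, 15.3 and 2.84 CPM on D12 against 6.88, 17.1, 11.7 and 11.6 CPM on D0 and was not called (adjusted p = 0.35, edgeR). FEZF2, a factor of the early forebrain, was higher (1.74 ± 0.54, with overlap). FEZF2 was not called without D12 TMG replicate 1 (1.65) or D12 control replicate 1 (1.33), nor LHX2 without D0 control replicate 2 (-1.31).

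Posterior factors were mostly too low to test. Of 29 midbrain, hindbrain and spinal cord genes 17 did not pass the filter, among them all 9 HOX genes of the list, which had 0 to 17 counts each over the 8 libraries. Of the 12 tested, 4 were higher and 3 lower. GBX2, which sets the anterior limit of the hindbrain, fell from 28.1, 106, 70.8 and 67.1 CPM to 0.678, 0.352, 0.493 and 1.12 CPM (log2 fold change -6.70 ± 0.52), and PAX8 (-4.43 ± 0.60) and PAX5 (-3.90 ± 0.32) fell with it. LMX1A, a LIM homeobox factor of the roof plate, cortical hem and midbrain floor, rose from 0.0643, 0.219, 0.359 and 0.325 CPM to 182, 232, 279 and 150 CPM. Its log2 fold change of 9.72 ± 0.35 (adjusted p = 1.07e-06, edgeR) was the second largest fitted rise under the naming rule. The gene placed first, SIGLEC6, had no count on D0, so that this order rests on a fitted value. LMX1B, the relative of LMX1A, rose by 5.38 ± 0.25.

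The 10 largest rises, by the rule that named the falls, were SIGLEC6, LMX1A, PRSS56, WNT1, WNT6, NPR3, GDF7, KRT23, BARHL1 and ZFHX4-AS1. GDF7, a BMP family ligand of the roof plate, rose from 0.257, 0.949, 1.08 and 1.08 CPM to 284, 245, 261 and 151 CPM (8.10 ± 0.37). PRSS56, a serine protease, and NPR3, a natriuretic peptide receptor, rose in every library but were uneven: PRSS56 stood at 12.4, 47.6, 45.5 and 203 CPM and NPR3 at 12.5, 21.6, 14.6 and 82.6 CPM on D12, with TMG replicate 2 highest for both. WNT6, KRT23 and SIGLEC6 were highest in TMG replicate 1, where SIGLEC6 had 26.1 CPM against 2.56, 3.99 and 11.6 CPM in the others and no count on D0 (at least 227-fold higher over the floor of 3 counts).

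Neural crest and placode markers were the list with the largest share of risers. Of 16 tested of 17, 14 (87.5%) were higher and none lower, with a median of 2.77. PAX3, a paired-box factor of the dorsal neural tube and crest, rose from 1.09, 4.23, 4.88 and 4.11 CPM to 230, 321, 381 and 398 CPM (log2 fold change 6.57 ± 0.34). TFAP2B (6.74 ± 0.65), TFAP2A (5.62 ± 0.35) and MSX1 (4.31 ± 0.46), factors of the plate border, rose too. SOX10, which marks migrating crest, had 5.59, 4.30, 4.88 and 4.98 CPM on D0 and 49.96, 63.4, 47.1 and 196 CPM on D12 (4.08 ± 0.47). TMG replicate 2 stood well above the other 3 for SOX10 and TFAP2B (229 CPM against 34.3, 46.5 and 41.8), and without this library 12 members of the list were higher and 1 lower. TWIST1 was not called (1.64 ± 0.82), but it was without D0 control replicate 2 (3.04), with DESeq2 (1.71), with the replicate block (1.74) and with the treatment tags (1.78).

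Markers of surface ectoderm and mesenchyme rose in part. Among 9 surface ectoderm genes tested, 7 (77.8%) were higher: GATA3, a factor of non-neural ectoderm, reached 12.9, 15.7, 50.5 and 17.6 CPM from 0.0643, 0.438, 0.144 and 0.271 CPM (6.65 ± 0.54). TP63, a factor of basal epithelium, reached 0.782, 2.17, 16.4 and 10.9 CPM (5.93 ± 0.72). KRT5 and KRT14, keratins of stratified skin, were below the filter with 4 and 7 counts, and GRHL2 fell (-1.64 ± 0.36). The summed level of the list was 626 to 1666 CPM on D12 and 470 to 618 on D0 and most of it came from KRT8 (193 to 243 CPM on D0, 336 to 831 CPM on D12) and its partner KRT18, which was not called. Of 11 mesenchyme genes tested 7 (63.6%) were higher, such as the matrix genes LUM (5.50 ± 0.55), COL3A1 (4.43 ± 0.79) and COL1A2 (3.04 ± 0.23). COL3A1 stood at 9.49, 31.2, 37.8 and 136 CPM on D12. THY1, a surface protein of fibroblasts and of hESCs, fell (-3.77 ± 0.33). Decorin (DCN), a defining stromal gene, stayed below the filter with 8 counts.

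Mesoderm and endoderm markers were mostly lower or below the filter. Of 10 tested of 20, 6 (60.0%) were lower and 1, GSC (1.87 ± 0.63, with overlap), higher, a call lost without 6 of the 8 libraries in turn and with the replicate block (1.78), and 8 did not pass the filter, GATA4, SOX17, FOXA2 and HNF4A among them. TBXT (brachyury), the factor of the primitive streak, had 52 counts over the D0 libraries and 3 on D12 (ratio 19.6, 95% counting interval 6.34 to 98.0). CER1, a Nodal antagonist of endoderm, had 116 and 3 counts (ratio 43.7, interval 14.6 to 215). KDR, a VEGF receptor that hESCs also express, fell from 171, 131, 205 and 206 CPM to 10.2, 29.7, 13.5 and 12.9 CPM (-3.44 ± 0.35). The summed level of the list dropped from 165 to 220 CPM on D0 to 17.8 to 37.8 CPM on D12, and KDR made up most of the D0 sum. The part of crest, ectodermal or mesenchymal markers in other results was not tested.

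**Figure D2:**
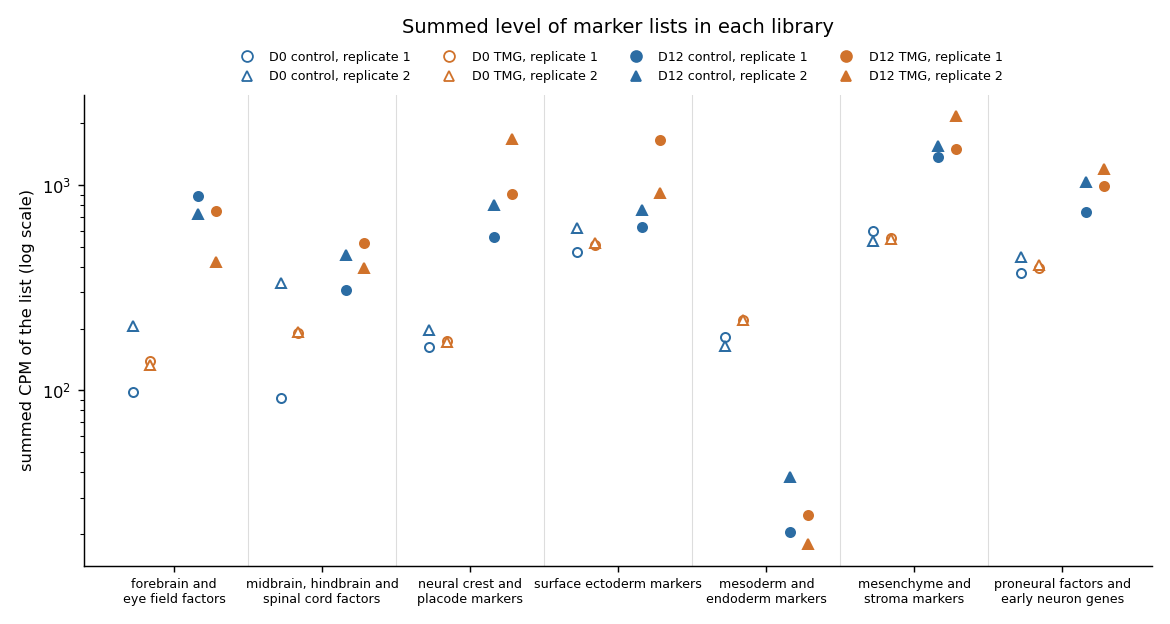
Summed CPM of all matched members of 7 marker lists in each library on a log axis, with symbols by stage, arm and replicate. On D12, TMG replicate 2 is highest for crest and placode markers (1676 CPM) and lowest for forebrain factors (422 CPM), TMG replicate 1 is highest for surface ectoderm markers (1666 CPM), and mesoderm and endoderm markers lie below every D0 library.

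Cadherins and junction genes moved in both directions. Of 23 genes, 9 (39.1%) were higher and 10 (43.5%) lower. CDH1 (E-cadherin), the adhesion molecule of the stem cell epithelium, fell from 286, 170, 218 and 220 CPM to 19.4, 34.4, 127 and 74.8 CPM (-2.09 ± 0.44), and CDH2 (N-cadherin) of neuroepithelium rose from 117, 134, 161 and 162 CPM to 466, 774, 615 and 592 CPM (2.10 ± 0.17). The CDH2 to CDH1 ratio shifted by 4.18 on the log2 scale and did not overlap, though it was lower in both D12 TMG libraries (2.27 and 2.97) than in both D12 controls (4.51 and 4.45). EPCAM (-3.41 ± 0.36), the splicing regulator ESRP1 (-3.25 ± 0.42) and CLDN6 (-2.32 ± 0.32) fell. The calls of CDH1 (-2.12), ESRP1 (-3.32) and CLDN7 (-1.63) were lost with all 16 libraries in the fit. CDH6, a cadherin of the plate border, and CRB2, an apical polarity protein, rose by 3.83 ± 0.64 and 3.51 ± 0.28. For CDH1, EPCAM, ESRP1 and CLDN7 the D12 TMG libraries, and TMG replicate 1 most, were above the controls. With edgeR the difference between arms, described further on, was called for none of these 4 genes (adjusted p = 1.0 each).

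The pathways that the medium and its inhibitors address were examined next, from ligands to targets. For Nodal, activin and TGF-beta, 10 of 25 genes tested were higher and 10 lower (40.0% each). TDGF1 is counted with the stem cell genes, and within the present list the largest falls were the Nodal transcription partner FOXH1 (-6.54 ± 0.28), the Nodal inhibitor LEFTY1 (from 8.10, 36.0, 17.2 and 15.7 CPM to 0.626, 0.410, 0.384 and 0.198 CPM; -5.54 ± 0.53), the target PMEPA1 (-3.75 ± 0.28), and the inhibitor LEFTY2, while NODAL itself fell by 2.58 ± 0.33. SMAD7, the inhibitory SMAD, fell by 2.11 ± 0.16. Risers included the ligand genes INHBA (3.38 ± 0.88) and TGFB2 (1.41 ± 0.38) and the receptor TGFBR1 (1.16 ± 0.12), and SMAD2 was not called.

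For BMP, 17 of 23 genes (73.9%) were higher and 1, the receptor BMPR1A (-0.52 ± 0.13), lower. D0 control replicate 1 was the lowest D0 library for 17 of the 23 and D0 control replicate 2 the highest for 15, against 31.1% and 33.3% of all genes, and without them 16 and 17 were higher. Ligands rose: BMP4 from 0.964, 4.96, 3.09 and 2.92 CPM to 41.8, 79.1, 68.0 and 63.8 CPM (4.42 ± 0.40), BMP2 by 2.84 ± 0.26 and BMP7 by 2.07 ± 0.21. So did the secreted antagonists GREM1 (5.31 ± 0.50) and NOG (2.96 ± 0.37). ID1, ID2, ID3 and ID4, direct targets of BMP signalling, were higher, with ID1 at 32.0, 102, 47.4 and 47.4 CPM on D0 and 194, 222, 224 and 118 CPM on D12 (1.74 ± 0.34). ID2 and ID4 overlapped between stages and lost the call without 6 and 5 of the libraries in turn, and ID1 and ID3 did not overlap.

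For FGF, 14 of 23 genes (60.9%) were lower and 2 higher. FGF19, a ligand of FGFR4, had 15.8, 17.5, 29.9 and 27.2 CPM on D0 and 3 counts in all on D12 (ratio 528, 95% counting interval 180 to 2570). Of the targets of FGF and ERK signalling, 7 were lower and SPRED1 and SPRED2 were not called. Without D0 control replicate 1, SPRED1 and SPRED2 were called (-0.33 and -0.30). SPRED1 was also called without D12 control replicate 1 or D12 TMG replicate 1, with DESeq2 and with RLE scaling. Among the 7 were ETV4 (-5.06 ± 0.26), SPRY4 from 344, 407, 358 and 359 CPM to 11.5, 12.2, 14.6 and 12.6 CPM (-4.85 ± 0.12), DUSP6 (-2.79 ± 0.19) and SPRY2 (-2.45 ± 0.15). Of the receptors, FGFR4 (-3.56 ± 0.28) and FGFR1 (-1.29 ± 0.12) fell, and FGFR3 (1.71 ± 0.33) and FGFR2 (0.93 ± 0.14) rose, which moved the FGFR3 to FGFR4 ratio by 5.005 on the log2 scale.

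For WNT, 22 of 39 genes (56.4%) were higher and 9 (23.1%) lower. D0 control replicate 1 was the lowest D0 library for 22 of the 39, against 31.1% of all genes. On D12, control replicate 1 was the lowest for 19, against 28.7% of all genes. Without these libraries 20 and 22 were higher. The ligands WNT1 (from 0, 0.219, 0.0718 and 0.325 CPM to 31.4, 126, 62.5 and 83.5 CPM; 8.81 ± 0.68), WNT3A (4.14 ± 0.45) and WNT8B (3.70 ± 0.60), all of dorsal neural tube or cortical hem, rose, as did the R-spondin RSPO2 (4.49 ± 0.27). AXIN2, a direct target of beta-catenin, rose from 30.1, 44.1, 43.3 and 42.5 CPM to 82.2, 170, 252 and 281 CPM (2.20 ± 0.27). LEF1 (2.24 ± 0.47), NKD1 (1.46 ± 0.29) and NOTUM (2.72 ± 0.44), further targets, rose with it, and SP5 was not called. WIF1, a secreted WNT inhibitor, had 68 counts on D0 and 5 on D12 (-3.75 ± 0.43). The frizzled receptors FZD5 (-1.80 ± 0.20) and FZD7 (-1.74 ± 0.19) and the secreted inhibitor SFRP1 (-2.04 ± 0.26) fell.

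**Figure D3:**
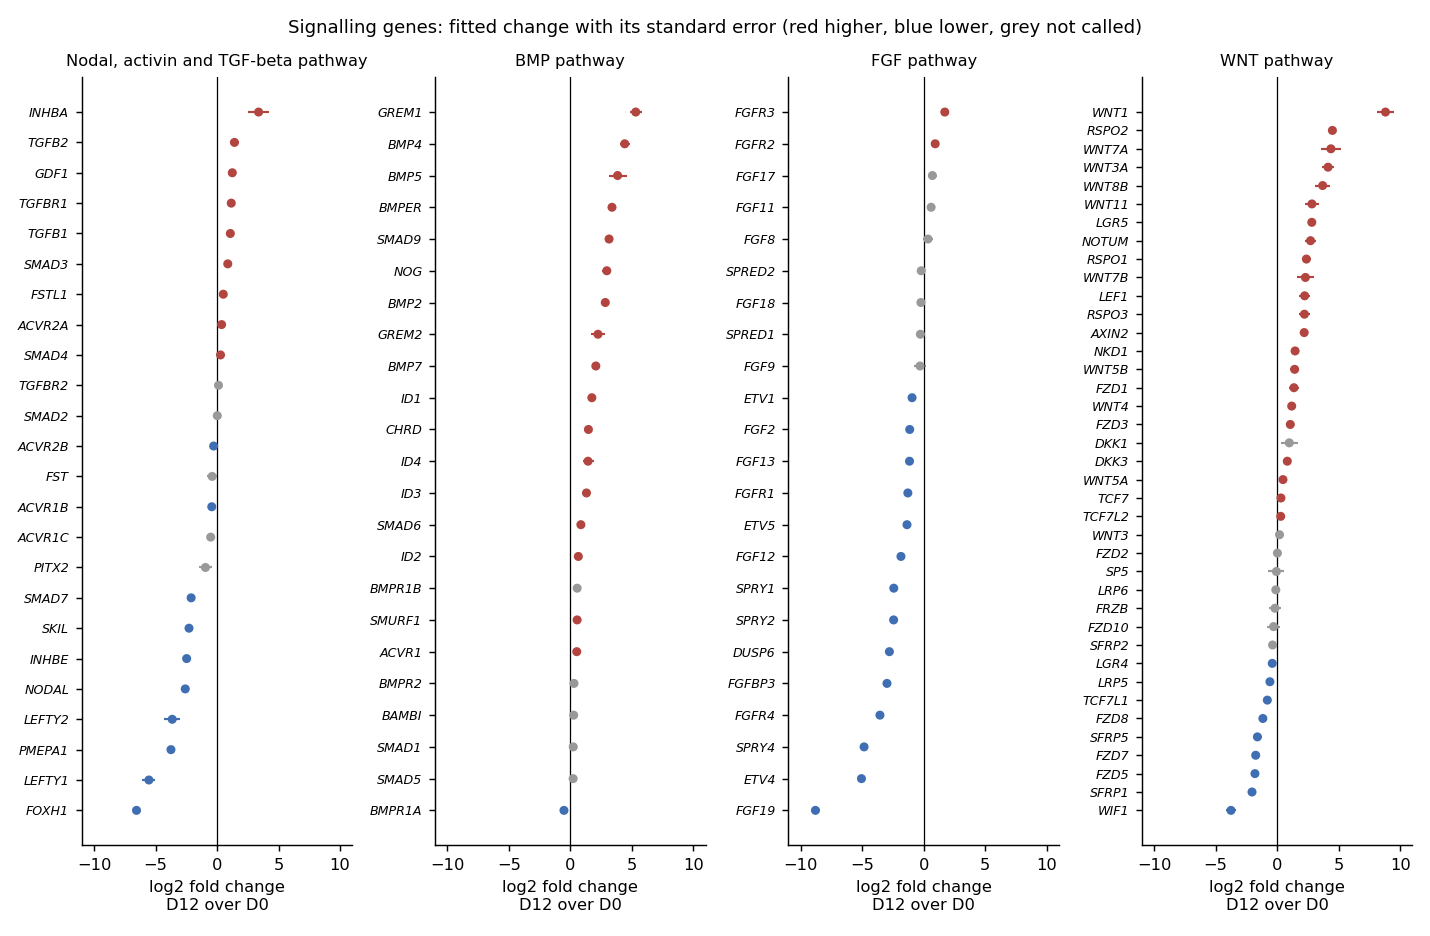
Fitted log2 fold change of D12 over D0 (points) with its standard error (bars) for tested genes of the Nodal (24 of 25 shown), BMP, FGF and WNT lists, where red is higher, blue lower and grey not called at 5% FDR. Most BMP genes lie to the right of 0 and most FGF genes to the left, with FGF19 at -8.80 and WNT1 at 8.81 as the extremes of the genes shown. TDGF1 is in the list of stem cell genes, is not one of the 25 and is not plotted.

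Notch, hedgehog and retinoid genes each moved in both directions. Of 21 Notch genes 8 were higher and 5 lower. NOTCH2 rose from 292, 257, 280 and 286 CPM to 1117, 1612, 1227 and 1223 CPM (2.21 ± 0.14) and JAG1 by 1.09 ± 0.27, whereas HES6 (-2.45 ± 0.29) and the targets HEY2 (-3.20 ± 0.19) and NRARP (-1.52 ± 0.40, with overlap) fell and HEYL rose (2.28 ± 0.42). Without the filter on low counts JAG1 (1.08) and NRARP (-1.54) were not called, and 3 Notch genes in place of 5 were lower. Of 9 hedgehog genes tested 6 were higher. These were the co-receptors BOC (3.70 ± 0.21), CDON (3.21 ± 0.17) and GAS1 (2.44 ± 0.37), with HHIP, SUFU and SMO (not called without D0 control replicate 1, at 0.45), while GLI1, the target that reports pathway activity, fell from 10.2, 7.44, 10.1 and 11.8 CPM to 0.365, 0.117, 0.329 and 0.528 CPM (-4.88 ± 0.30). SHH was below the filter. Of 15 retinoid genes tested 8 were higher and 3 lower, with ALDH1A1 (3.74 ± 0.49) and the receptor RARB (3.08 ± 0.39) at the top and CYP26A1, which degrades retinoic acid, at the bottom (-3.32 ± 0.42) before ALDH1A3 (-1.18 ± 0.40, with overlap, a call lost without 4 of the libraries in turn). The binding proteins moved oppositely, CRABP2 up (2.48 ± 0.23) and CRABP1 down (-0.76 ± 0.21).

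Early neuronal genes were mostly higher on D12. Of 25 proneural and early neuron genes 18 (72.0%) were higher and 2 lower, but with all 16 libraries in the fit only 6 were higher. D12 TMG replicate 2 was the highest D12 library for 14 of the 25 and D12 control replicate 2 the lowest for 15, against 26.6% and 21.7% of all genes, and 18 were higher without either one. On D0, control replicate 2 was the highest for 16 and control replicate 1 the lowest for 14, and without them 20 and 18 were higher. POU4F1 (BRN3A), a factor of sensory and dorsal midbrain neurons, rose from 0.514, 1.31, 0.646 and 0.811 CPM to 28.6, 12.4, 22.6 and 35.2 CPM (4.90 ± 0.40), ISL1 by 3.90 ± 0.59 and NEUROG1 by 3.34 ± 0.54. MAP2, a dendritic microtubule protein, rose from 49.2, 89.2, 61.7 and 64.4 CPM to 288, 617, 489 and 539 CPM (2.87 ± 0.27), and DCX, of migrating neurons, by 0.68 ± 0.14 with overlap. ONECUT1 (-2.09 ± 0.22) and RBFOX3 (-1.80 ± 0.25) were lower. Radial glia genes were less uniform, with 9 of 18 higher and 4 lower. HOPX, a homeodomain protein of outer radial glia, had no count on D0 and 0.730, 0.234, 5.86 and 0.396 CPM on D12 (at least 38.7-fold higher over the floor), set largely by TMG replicate 1, and it was not called without the filter on low counts. VIM rose (1.79 ± 0.14), NES was not called (0.38 ± 0.19) except without the filter (0.37), and PTPRZ1 (from 1215, 682, 903 and 895 CPM to 180, 157, 131 and 181 CPM; -2.51 ± 0.19) and SLC1A3 (-1.72 ± 0.20) fell.

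Chromatin genes included a few large shifts. DNMT3B, the de novo DNA methyltransferase of pluripotent cells, fell from 1076, 821, 1056 and 1036 CPM to 37.3, 42.0, 38.6 and 63.9 CPM (-4.47 ± 0.19), while DNMT3A fell by 0.32 ± 0.08, and the DNMT3A to DNMT3B ratio moved by 4.14 on the log2 scale. DNMT1 (-0.84 ± 0.14) and TET1 (-1.005 ± 0.12) fell and TET2 rose (1.78 ± 0.11). Of 18 Polycomb genes tested, 4 were higher and 5 lower, shares of 22.2% and 27.8% that are near those of all genes. Within them JARID2, a PRC2 subunit of stem cells, fell from 557, 488, 524 and 504 CPM to 97.1, 118, 107.8 and 121 CPM (-2.22 ± 0.11), EZH2, the PRC2 methyltransferase, by 0.50 ± 0.11, and BMI1 (2.32 ± 0.23) and the demethylase KDM6B (2.12 ± 0.13) rose. Among 19 BAF subunits 8 were higher and 5 lower, but only 3 were higher without D0 TMG replicate 1, 4 without D0 TMG replicate 2, and 5 without D0 control replicate 1 or D12 TMG replicate 2. DPF3 (2.09 ± 0.61) and SMARCA2 (1.54 ± 0.38, with overlap) rose most, DPF3 with a call that was lost without D0 TMG replicate 1 (1.77) or 2 (2.00). The neural subunit ACTL6B rose (1.25 ± 0.37, not called without D0 TMG replicate 1 or D12 TMG replicate 2, at 1.2 and 1.01) and ACTL6A (-0.99 ± 0.17) and DPF1 (-0.95 ± 0.20) fell, and SMARCD3 over SMARCD1 shifted by 1.33 without overlap.

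Cell cycle, sterol synthesis and glycolysis genes were more often lower than higher on D12. Of 25 cell cycle genes 16 (64.0%) were lower and 4 higher, none of them by 4-fold. MCM5, a replication helicase subunit, fell from 245, 248, 250 and 259 CPM to 75.3, 72.9, 60.3 and 83.6 CPM (-1.78 ± 0.11), MKI67 by 1.03 ± 0.19 and CCNE1 by 1.69 ± 0.18, and the inhibitors CDKN2C (1.96 ± 0.40) and CDKN1A (1.42 ± 0.24, with overlap) rose. Sterol synthesis was the list with the largest share of fallers, 19 of 20, with a median of -1.67. DHCR7, which carries out a late step of cholesterol synthesis, fell from 194, 85.0, 154 and 158 CPM to 13.7, 21.6, 15.7 and 24.5 CPM (-2.97 ± 0.28), and all 4 D12 libraries were below the D0 range. D0 control replicate 2 was the lowest D0 library for 17 of 20 sterol genes and 17 of 21 glycolysis genes, and without it 19 sterol genes were still lower. D12 TMG replicate 2 was the highest D12 library for 16 of 20 sterol genes and 17 of 25 cell cycle genes, against 26.6% of all genes, and without it 19 and 16 of them were lower. In glycolysis and hypoxia 12 of 21 genes tested (57.1%) were lower, such as HK2 (-1.91 ± 0.46) and PDK1 (-1.80 ± 0.31), and PKM was higher (0.79 ± 0.26, a call lost without 6 of the libraries in turn). D12 control replicate 2 was the highest D12 library for 17 of those 21 and D12 control replicate 1 the lowest for 15, against 22.9% and 28.7% of all genes. With a library left out 9 to 15 were lower, 15 without D12 control replicate 2 and 9 without D12 control replicate 1, D12 TMG replicate 1 or either D0 TMG library. The fall of HK2, 214, 75.2, 200 and 203 CPM to 18.9, 76.1, 33.9 and 53.6 CPM, overlapped through control replicate 2 of both stages, and HK2 was not called without the filter on low counts (-1.92).

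Of the O-GlcNAc enzymes themselves, OGT, the transferase, rose from 419, 443, 503 and 500 CPM to 520, 513, 669 and 618 CPM (0.31 ± 0.09, adjusted p = 0.0133, edgeR), and OGA, the target of TMG, was not called (0.25 ± 0.16, adjusted p = 0.204, edgeR). GFPT2, an isoform of the enzyme that commits glucose to the hexosamine pathway, fell from 124, 141, 107 and 109 CPM to 15.9, 15.2, 15.3 and 17.0 CPM (-2.91 ± 0.11). GNPNAT1 (-1.15 ± 0.13) fell, and NAGK (0.85 ± 0.10), PGM3 (0.75 ± 0.18) and UAP1 (0.33 ± 0.10) rose, which makes 4 of 8 genes of the list higher and 2 lower. Without D0 TMG replicate 1 or 2, or with the treatment tags, 2 were higher, and OGT (0.29, 0.30 and 0.31) and UAP1 (0.30, 0.32 and 0.33) were not called. UAP1 also lost its call without D0 control replicate 1, D12 control replicate 2 or D12 TMG replicate 1 (0.31, 0.31 and 0.26) and without the filter on low counts (0.31), so that it was called in 3 of the 8 fits with a library left out. GFPT2 and GNPNAT1 were called lower in each arm.

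Among transcripts that host microRNAs, 4 of 8 tested were lower and 4 higher. D0 control replicate 2 was the highest D0 library for all 8 and D0 control replicate 1 the lowest for 6, and without D0 control replicate 2 the counts were 3 lower and 4 higher. MIR302CHG, the host of the miR-302 and miR-367 cluster that is typical of hESCs, fell from 75.8, 87.9, 64.1 and 77.5 CPM to 0.313, 0.469, 0.493 and 0.264 CPM (log2 fold change -7.60 ± 0.19, adjusted p = 1.47e-07, edgeR). MIR17HG, host of the miR-17 cluster, fell from 61.8, 115, 84.3 and 78.4 CPM to 25.1, 22.5, 24.98 and 32.5 CPM (-1.70 ± 0.20). These libraries measured the host transcripts, and 7 separate entries for the microRNA genes of the miR-302 and miR-371 clusters had no count, so no mature microRNA was quantified. The mature sequences of the MIR302CHG cluster are shown with miR-17-5p and miR-20a-5p, which were picked from the MIR17HG cluster because their seed resembles that of miR-302 (RefSeq, GRCh38.p14, 5′ to 3′, seed bases 2 to 8 in capitals). The 4 miR-302 members have the seed AAGUGCU and miR-17 and miR-20a the seed AAAGUGC, while miR-367 has another. MIR17HG also holds microRNAs with other seeds, which are not shown.
miR-302a-3p: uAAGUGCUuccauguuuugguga
miR-302b-3p: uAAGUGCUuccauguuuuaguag
miR-302c-3p: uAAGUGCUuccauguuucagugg
miR-302d-3p: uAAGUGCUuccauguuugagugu
miR-367-3p: aAUUGCACuuuagcaaugguga
miR-17-5p: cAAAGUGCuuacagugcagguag
miR-20a-5p: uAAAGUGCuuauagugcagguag

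The other hosts with sequences shown carry other seeds. MIR100HG went from 3.47, 7.73, 5.46 and 5.19 CPM to 20.1, 22.4, 23.6 and 14.4 CPM (1.88 ± 0.26), and MIR99AHG rose by 1.71 ± 0.37. Each of these hosts holds a member of the miR-99/100, let-7 and miR-125 families, and the 2 let-7 members are printed because LIN28A, which fell, and LIN28B act on that family. MIR137HG (1.63 ± 0.36) and MIR124-2HG (1.76 ± 0.33) host microRNAs of neurons. MIR9-1HG and MIR9-3HG, hosts of the neural miR-9, fell instead. MIR9-1HG went from 14.1, 24.1, 20.2 and 19.04 CPM to 1.93, 5.16, 3.12 and 3.63 CPM (-2.49 ± 0.30). A further miR-9 host of the list, MIR9-2HG, matched no symbol and was not tested under that name. The fall of MIR9-3HG (-1.68 ± 0.51) was a call lost without D0 control replicate 2, D0 TMG replicate 2 or D12 control replicate 2.
miR-99a-5p (in MIR99AHG): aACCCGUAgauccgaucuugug
miR-100-5p (in MIR100HG): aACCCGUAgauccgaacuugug
let-7c-5p (in MIR99AHG): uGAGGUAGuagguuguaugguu
let-7a-5p (in MIR100HG): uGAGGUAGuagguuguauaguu
miR-125b-5p (in MIR99AHG and MIR100HG): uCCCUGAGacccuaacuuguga
miR-137-3p (in MIR137HG): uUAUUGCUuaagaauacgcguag
miR-9-5p (in MIR9-1HG and MIR9-3HG, both lower): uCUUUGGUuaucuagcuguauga

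Other lncRNAs showed both directions, with 6 of 17 higher and 7 lower. DLX6-AS1 rose from 1 count on D0 to 47 on D12 (ratio 41.6, 95% counting interval 7.12 to 1680). LNCPRESS1, which hESCs need to keep histone acetylation at pluripotency genes, had 541 counts on D0 and none on D12 (at least 204-fold lower). The nuclear lncRNAs MALAT1 and NEAT1 were higher: NEAT1 went from 196, 469, 362 and 354 CPM to 5116, 7498, 5960 and 4599 CPM (4.06 ± 0.30), and MALAT1 rose by 2.38 ± 0.20. Their share of all counts was 0.437% to 0.707% on D0 and 3.0% to 4.18% on D12. H19, an imprinted transcript, rose from 5.53, 3.94, 4.31 and 5.25 CPM to 109, 102, 785 and 242 CPM (5.63 ± 0.60), with TMG replicate 1 the highest.

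Promoters of the genes tested were searched for the letters of a few factors of this circuit, because POU5F1 fell so far. The composite site of SOX and POU factors (CATTGT, any 1 base, ATGCAAA, on both strands) was found in 3 of 35116 RefSeq promoters of 300 bases (0.00854%). Only NANOG and NRARP held it among genes tested, and both were lower on D12. The octamer ATGCAAAT, which overlaps the composite, was in 1.77% of promoters and 1.97% of genes tested, in 1.82% of genes that were higher and 2.15% of genes that were lower. Of 15 members of the gene lists with an octamer match, 7 were lower, 4 higher and 4 not called, with MIR302CHG (-7.60) and HES6 (-2.45) among the lower and ALDH1A1 (3.74) and NEUROG1 (3.34) among the higher. The RBPJ letters TTCCCACG of Notch targets were in 0.826% of promoters and 1.29% of genes tested, and in 1.48% of higher and 1.31% of lower genes, HEYL among the former and HEY2 among the latter. The 250 bases before the start of NANOG (GRCh38.p14, chr12:7789152-7789401, plus strand), NRARP (chr9:137302272-137302521, minus strand) and MIR302CHG (chr4:112650052-112650301, minus strand) are shown from RefSeq with the matched letters in capitals, as members that fell and carry a match, which members that rose carry too for the octamer.
NANOG: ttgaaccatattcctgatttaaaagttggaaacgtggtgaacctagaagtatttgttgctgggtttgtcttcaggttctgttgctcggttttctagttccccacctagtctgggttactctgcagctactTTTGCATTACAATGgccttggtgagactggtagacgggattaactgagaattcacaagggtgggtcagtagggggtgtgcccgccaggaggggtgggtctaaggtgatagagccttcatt
NRARP: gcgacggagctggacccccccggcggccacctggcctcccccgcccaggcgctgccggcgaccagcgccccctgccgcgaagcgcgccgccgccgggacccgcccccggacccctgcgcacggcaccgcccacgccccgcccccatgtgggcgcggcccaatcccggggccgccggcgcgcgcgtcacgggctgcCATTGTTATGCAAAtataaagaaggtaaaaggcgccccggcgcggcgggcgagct
MIR302CHG: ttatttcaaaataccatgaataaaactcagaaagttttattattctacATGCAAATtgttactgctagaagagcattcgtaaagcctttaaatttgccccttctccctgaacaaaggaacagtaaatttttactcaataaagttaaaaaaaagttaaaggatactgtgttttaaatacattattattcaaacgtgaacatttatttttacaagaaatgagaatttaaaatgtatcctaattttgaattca

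In NANOG the composite lies on the opposite strand, 107 to 120 bases before the start, and in NRARP on the same strand, 42 to 55 bases before it. A match is a run of letters and says nothing of binding in these cells.

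**Figure D4:**
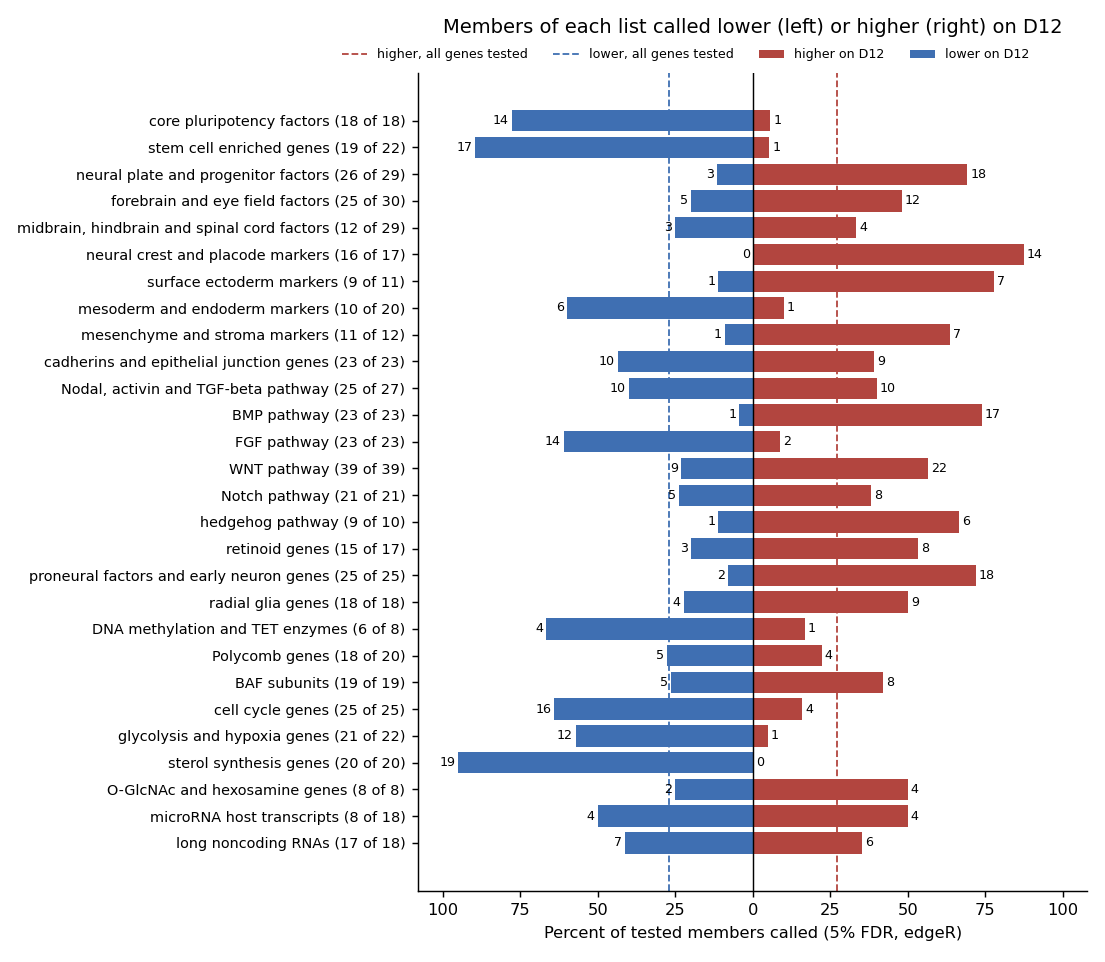
Percent (horizontal axis) of tested members of each of 28 gene lists called higher (red, right) or lower (blue, left) on D12, with the number called at each bar and the numbers tested and listed in parentheses; dashed lines mark the shares among all 22970 genes, 27.3% higher and 26.9% lower. Sterol synthesis genes reach furthest to the left (19 of 20) and neural crest and placode markers furthest to the right (14 of 16).

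The same change was then taken within each arm, since both arms passed through induction. In control cells 8374 genes (36.5%) were called and in TMG cells 8223 (35.8%), each with a change taken from 2 libraries a stage. Both arms were tested in the same fit of all 8 libraries, with scaling and error estimates in common. Control calls fell to 5352 without D12 control replicate 1, and TMG calls to 3532 without D0 TMG replicate 1, 3572 without D0 TMG replicate 2 and 5442 without D12 TMG replicate 1. The 6458 genes called in both made up 77.1% of the control calls and 78.5% of the TMG calls, and 6456 of them had the same direction. The arms share no library but do share these error estimates, so the overlap of their calls is not that of separate tests. Their log2 fold changes correlated across genes at 0.866, where genes are not independent replicates. POU5F1 changed by -10.32 in control and -10.93 in TMG cells, PAX6 by 6.003 and 5.48, and OTX1 by 5.85 and 6.08.

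A test of the difference between the changes of both arms called no gene with edgeR (0.0%), with 847 genes (3.69%) at an unadjusted p under 0.05 and a lowest adjusted p of 0.899. DESeq2 called 11, and edgeR without the filter on low counts 391. A count of 0 does not show that the arms changed alike. Among genes described above, HES5 changed by 3.17 in control and 0.63 in TMG cells (difference -2.54 ± 1.55, adjusted p = 1.0, edgeR), SIX3 by 1.82 and -0.35, and CDH1 by -3.08 and -1.12. H19 rose by 4.47 in control and 6.74 in TMG cells. These values rest on the titles, and the tags that name the other arm for 4 libraries were tried after seeing the data. With the tags 9793 genes were called in control and 8565 in TMG cells. The difference of HES5 was then -2.58 and that of SIX3 -2.09, but that of CDH1 was -0.05 in place of 1.96 and that of H19 -1.29 in place of 2.27, each with an adjusted p of 0.669 or more (edgeR). The tags gave 1 call for the difference, the histone gene H3C12, named after its values were seen. It stood at 18.9, 88.4, 18.9 and 91.1 CPM on D12, high in both replicates 2, and at 96.8, 116, 100.6 and 124 CPM on D0. Reads of H3C12 may be shared with near-identical histone genes.

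**Figure D5:**
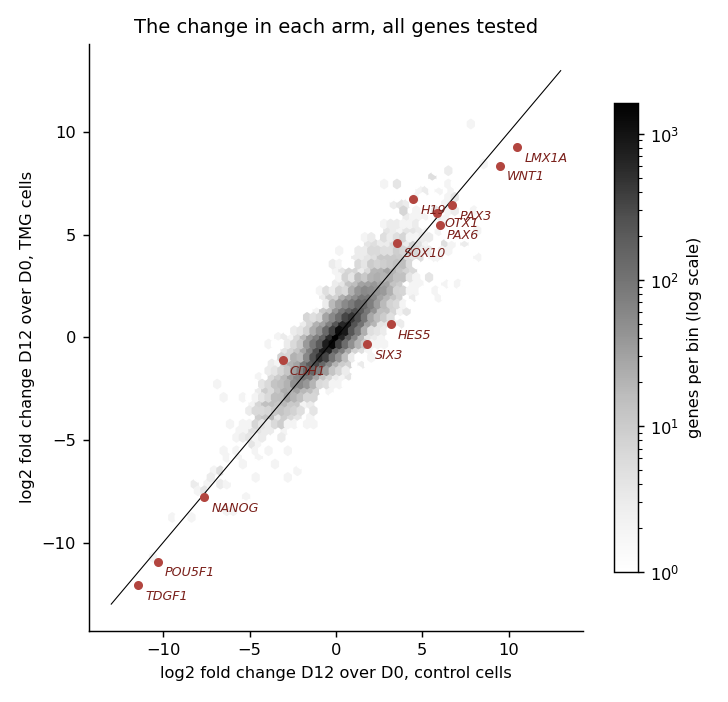
Log2 fold change of D12 over D0 in control cells (horizontal) and TMG cells (vertical) for all 22970 genes tested, with grey shade for the number of genes per bin on a log scale, the line of equal change and 13 named genes. TDGF1 lies at one end and LMX1A at the other, both near the line, with HES5 and SIX3 below it and CDH1 and H19 above it.

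Spread within a stage was measured over its 4 libraries, both arms included. Among genes of at least 10 CPM, the highest library of a stage was 4-fold or more above the lowest for 109 of 11267 (0.967%) on D0 and 171 of 11307 (1.51%) on D12. TMG replicate 2 was the library farthest from the median for 85 of these 171 (49.7%) and control replicate 1 for 51. Protein-coding genes at least 4-fold higher spanned a median of 48.4 kb from first to last base in GRCh37, those at least 4-fold lower 28.0 kb, and all coding genes tested 33.5 kb. Their exonic lengths were 5130, 4036 and 5202 bases.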

How the data were processed

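RNA-seq of total RNA after ribosomal RNA depletion was read from the series table of 57736 genes. Per the labels and methods, the authors aligned reads to hg19 with Bowtie2 and estimated counts per gene with RSEM 1.2.12, and the deposited values are these expected counts, not normalized. Coordinates of genes are from GRCh37. The estimates were rounded to whole counts. D12 was compared with D0 in 8 libraries in R 4.3.3 with edgeR 4.0.16 (TMM scaling, filterByExpr with a minimum count of 10 and a total of 15, robust quasi-likelihood test, arm as covariate, Benjamini-Hochberg adjustment, FDR 5%). The scripts were tested on simulated data with known changes. The named genes are up to 5 members of a list, with those whose role a sentence needed, and the 10 largest rises and falls with no overlap and a mean of at least 10 CPM at the higher stage. Members and lists were chosen with earlier results of these data known. Of 572 entries in 28 lists, 11 matched no symbol. DESeq2 1.42.0, RLE scaling, no filter, a replicate block, the treatment tags, all 16 libraries and leaving out each library were alternatives. Intervals of count ratios are exact at 95% and cover counting error only. The SE of a log2 fold change is its absolute value divided by the square root of the F statistic, and it can understate counting error at low counts. The p-values measure the spread between these cultures of 1 line. The mitochondrial share was not analysed here. Some list members are counted but not reported by name here.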

Additional observations from a re-analysis of the deposited data

How the results depend on the processing

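The counts of genes that differed between D0 and D12 stayed within 1.5 times with DESeq2, RLE scaling, no filter on low counts, the replicate block, the treatment tags and each library left out (10482 to 12339 in both directions). With all 16 libraries in the fit 4028 genes were higher, and 4045 were called in control and 3984 in TMG cells. With single libraries left out, control calls were 5352 to 8468 and TMG calls 3532 to 8585. The difference between arms gave 11 genes with DESeq2 and 391 with no filter, and 1 with the treatment tags, an alternative added after seeing the data. With the tags, which follow the replicate number, the difference of CDH1 was -0.05 ± 1.06 in place of 1.96 ± 0.51 with the titles. That of H19 was -1.29 ± 1.28 in place of 2.27 ± 0.71. Of 56 list counts, 23 moved by over 1.5 times with 16 libraries, among them early neuron genes higher (18 to 6), crest and placode (14 to 9), surface ectoderm (7 to 4), Nodal (10 to 6), retinoid (8 to 4) and BAF (8 to 4) genes higher, and junction genes lower (10 to 6). Of 185 called genes named in the text, 41 lost the call under some alternative and 36 of them with 16 libraries. These 36 were ACTL6B, ALDH1A3, CDH1, CLDN7, CRABP1, DCX, DNMT3A, DPF1, ESRP1, FEZF2, FGFR2, GLI2, GRHL2, GSC, HHIP, ID2, ID3 and the following. They were ID4, INHBA, LHX2, LIN28B, LUM, MIR124-2HG, MIR137HG, MIR9-1HG, MIR9-3HG, NEUROG1, OGT, ONECUT1, OTX2, PKM, SIX6, SMARCD1, SMO, TP63 and UAP1. Without the filter on low counts, JAG1 (1.08), NRARP (-1.54), HK2 (-1.92), HOPX (7.95), ALDH1A3 (-1.19), FEZF2 (1.73), ID2 (0.64), ID4 (1.42), PKM (0.78) and UAP1 (0.31) were not called, and NES (0.37) was. In the comparison of the stages, signs reversed only for genes that were not called. With single libraries left out, log2 fold changes ran from -0.31 to 0.26 for KRT18, 0.00 to 0.79 for POU3F2, -0.05 to 0.07 for SMAD2 and -0.61 to 0.92 for SP5, SMAD2 was at 0.00 with 16 libraries, and SP5 was at 0.16 with the treatment tags. The cause was not tested. Same-numbered replicates deviated together between D12 control and D12 TMG (correlation 0.534 over 11868 genes), but the other 5 pairs of groups gave -0.055 to 0.105, so the numbers were not taken to pair samples across stages. With the replicate block 12614 genes were called in place of 12443, GSC lost its call (1.78) and TWIST1 gained one (1.74).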
